A study of Mus musculus with 12 samples.

Results

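The genes for the enzymes that cut and crosslink the extracellular matrix, and for the inhibitors of those enzymes, were followed in ventricles of mice that lack Vps13c in the heart. They are 4 tissue inhibitors of metalloproteinases (Timp1, Timp2, Timp3 and Timp4), 2 matrix metalloproteinases (Mmp2 and Mmp14) and 4 enzymes of the lysyl oxidase family (Lox, Loxl1, Loxl2 and Loxl3). Members were chosen by symbol, and all 10 symbols matched 1 gene ID each among the 21959 IDs of the count table. Poly-A RNA was sequenced from the ventricles of 12 male mice aged 7 weeks and fed chow, 6 with a cardiac-specific knockout of Vps13c (Vps13c-cKO) and 6 wild type (WT). Each sample is labelled as its own mouse. Litters, the way the knockout was restricted to the heart and any driver in the WT mice are not stated in the labels, and a driver's own effect and that of the knockout cannot be told apart.

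Matrix metalloproteinases are zinc enzymes that degrade collagens and other matrix proteins. Mmp14 encodes a protease anchored in the cell membrane, and Mmp2 encodes a secreted gelatinase that is made as an inactive precursor. At the cell surface the inhibitor TIMP2 bridges the MMP14 protein and the MMP2 precursor, so that TIMP2 can take part in the activation of MMP2 as well as in its inhibition. Lysyl oxidases are copper enzymes that oxidise lysines of collagen and elastin, the step that starts covalent crosslinking of fibres. In the heart these genes are expressed largely by fibroblasts and other stromal cells, and Timp4 is known for its high level in heart muscle tissue.

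Libraries held 12484523 to 15562942 gene counts, and Vps13c fell to 29.4% of its WT mean, with all 6 Vps13c-cKO mice below all 6 WT mice (log2 fold change -1.77 ± 0.06 SE). The ventricular label was met by the cardiomyocyte markers, with Myl2 at 6322 ± 299 CPM in WT and 5772 ± 149 CPM in Vps13c-cKO (SD, n = 6 each). Here CPM stands for the counts of a gene per 1e+06 counts of the normalised library. A pair of libraries stood apart. WT 4 held 405 counts of Myl7, 114 of Sln and 433 of Myl4, genes of atrial muscle, against at most 5, 1 and 31 counts in the other 11 libraries. Vps13c-cKO 1 held 3016 counts of Alb, 301 of Apoa1 and 233 of Fgb, genes of the liver, against at most 11, 1 and 0 in the other 11. For the 10 genes and the pairs of them, results that change without these libraries are given with and without them below. The lists of other genes and of markers were read only with every mouse included.

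All 10 genes passed the filter on low counts. At a threshold of 0.05 on the adjusted p, 4 were higher (Timp1, Timp2, Mmp2 and Loxl1) and 1 was lower (Timp4) in the knockout ventricles. Among all 12384 genes tested, 5.65% were higher, 5.1% lower and 10.7% called in either direction. The median log2 fold change of the 10 genes was 0.13, and that of all tested genes was 2.75e-05. The groups did not overlap for Timp2 and Mmp2, where every Vps13c-cKO mouse lay above every WT mouse. Such a separation upwards was seen for 2.75% of all tested genes, downwards (0 of the 10) for 2.18% and in either direction for 4.93%. Without WT 4, and also without WT 4 and Vps13c-cKO 1 together (a choice made after the data were seen), 4 of the genes were higher and 0 lower, because Timp4 lost its call. Without Vps13c-cKO 1 alone the counts were 4 and 1.

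**Figure D1:**
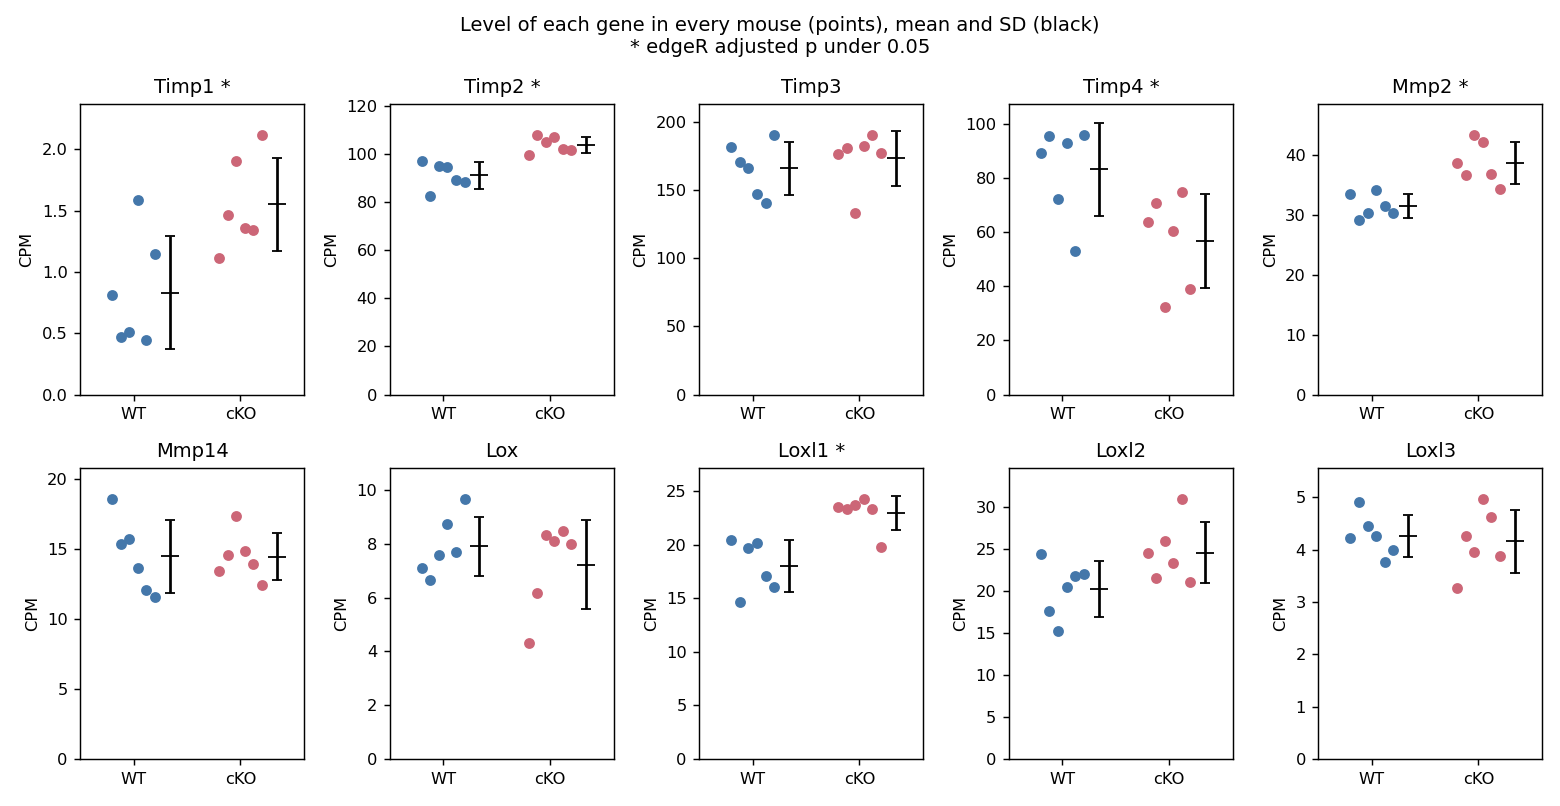
Level of each gene in CPM (vertical axes, starting at 0) in 6 WT and 6 Vps13c-cKO mice; points are mice, and the black bar shows the mean and SD. The groups are apart for Timp2 and Mmp2, overlap through 1 Vps13c-cKO mouse for Loxl1, and overlap widely for Timp3, Mmp14, Lox and Loxl3.

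Of the proteases, Mmp2 was called higher and Mmp14 was not called. Mmp2 was at 29.1 to 34.2 CPM in the WT mice (median 31.0) and at 34.3 to 43.4 CPM in the Vps13c-cKO mice (median 37.7). All 6 Vps13c-cKO values were thus above the highest WT value, although the lowest of them, in Vps13c-cKO 6, exceeded it only narrowly. The log2 fold change of Mmp2 (chromosome 8, ENSMUSG00000031740) was 0.30 ± 0.06 SE, with an adjusted p of 0.00245 (edgeR quasi-likelihood test). Mmp14, which encodes the membrane protease that activates the MMP2 precursor, did not pass. Its level ran from 11.6 to 18.5 CPM in WT (median 14.5) and from 12.4 to 17.4 CPM in Vps13c-cKO (median 14.2), so the Vps13c-cKO values lay inside the WT range. For Mmp14 the log2 fold change (chromosome 14, ENSMUSG00000000957) was -0.0034 ± 0.10 SE, with a 95% interval of -0.22 to 0.21 and adjusted p = 0.991. Mmp2 rose by 0.29 ± 0.11 SE more than Mmp14 on the log2 scale, but that difference missed the threshold (exact permutation p = 0.0238, adjusted p = 0.0595 over 15 pairs of genes). It passed without WT 5 (0.34, adjusted p = 0.0325) and without WT 6 (0.33, adjusted p = 0.0487). Without any 1 of the other 10 mice it did not pass (adjusted exact permutation p up to 0.112).

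The promoters of the TIMP genes that were called are shown here because Timp1 and Timp2 rose while Timp4 fell. Each line gives the 250 bases before the gene's start, from RefSeq on the build GRCm38.p6, 5′ to 3′ on the gene's strand, with matches to the searched motifs in capitals. RefSeq promoters were found for 5 of the 10 genes, the 4 TIMPs and Mmp14.
Timp1 (chrX:20869916-20870165, plus strand): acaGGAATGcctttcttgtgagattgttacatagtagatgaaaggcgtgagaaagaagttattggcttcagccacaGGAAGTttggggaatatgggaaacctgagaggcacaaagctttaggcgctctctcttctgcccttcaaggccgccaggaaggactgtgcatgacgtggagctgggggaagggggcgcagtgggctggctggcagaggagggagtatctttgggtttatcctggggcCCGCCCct
Timp2 (chr11:118355412-118355661, minus strand): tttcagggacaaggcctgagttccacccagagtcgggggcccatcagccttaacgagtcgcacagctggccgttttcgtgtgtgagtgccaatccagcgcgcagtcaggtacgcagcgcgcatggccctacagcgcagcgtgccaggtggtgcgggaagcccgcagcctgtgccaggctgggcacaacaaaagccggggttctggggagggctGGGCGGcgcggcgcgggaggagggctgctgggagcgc
Timp4 (chr6:115252206-115252455, minus strand): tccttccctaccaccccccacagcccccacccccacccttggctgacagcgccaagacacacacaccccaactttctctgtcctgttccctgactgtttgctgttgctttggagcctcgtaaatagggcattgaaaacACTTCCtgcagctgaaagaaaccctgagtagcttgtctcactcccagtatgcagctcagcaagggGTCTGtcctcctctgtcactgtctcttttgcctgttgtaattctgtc

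The motifs searched on both strands were GGAATG (TEAD), GGAAGT (ETS), CAGAC (SMAD), GGGCGG (SP1) and TGANTCA (AP-1). Of the 32851 promoters of the same length in the RefSeq table, 12.6% held the TEAD letters, 19.7% the ETS letters, 42.2% the SMAD letters, 32.7% the SP1 letters and 6.75% the AP-1 letters. In the Timp1 window the TEAD letters began 247 bases before the start, the ETS letters 174 bases before it and the SP1 letters 8 bases before it. The Timp2 window held 1 SP1 match, 37 bases before the start. In the Timp4 window 1 ETS match lay 112 bases and 1 SMAD match 47 bases before the start, and there were 0 SP1 matches. The AP-1 letters were in none of these 3 windows. The windows of Timp3 and Mmp14 held 1 and 2 SP1 matches and 0 matches to the other motifs, and the matches marked in the 3 printed windows do not overlap one another. GC content was 54.4% for Timp1, 68.0% for Timp2 and 53.6% for Timp4, against a median of 52.4% over all promoters.

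Among the inhibitors, 2 rose, 1 fell and 1 did not pass. Timp2, the inhibitor that also takes part in MMP2 activation, was at 82.5 to 97.3 CPM in WT (median 92.0) and at 99.6 to 108 CPM in Vps13c-cKO (median 104). Every Vps13c-cKO mouse was above every WT mouse, and the shift was small. The log2 fold change of Timp2 (chromosome 11, ENSMUSG00000017466) was 0.19 ± 0.04 SE, adjusted p = 0.00465. The log2 rise of Timp2 was 0.10 ± 0.06 SE smaller than that of Mmp2 (exact permutation p = 0.110, adjusted p = 0.151), which did not pass. Per kilobase of exon, the WT mice held 2.39 to 2.72 Timp2 for each Mmp2 (median 2.48), and the Vps13c-cKO mice 2.098 to 2.57 (median 2.32), with the groups overlapping. For Mmp14 over Mmp2 on the same scale the ratio was 0.216 to 0.312 in WT and 0.197 to 0.226 in Vps13c-cKO.

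Timp4 was the only one of the 10 genes called lower. Its level was 53.0 to 95.9 CPM in WT (median 91.2) and 32.3 to 74.6 CPM in Vps13c-cKO (median 61.9). The groups overlapped: WT 5 (53.0 CPM) and WT 3 (72.3 CPM) were the low WT mice, Vps13c-cKO 3 (32.3 CPM) and Vps13c-cKO 6 (38.8 CPM) were the low knockout mice, and all 6 Vps13c-cKO mice were below the WT median. The mean was 68.2% as high in Vps13c-cKO as in WT. For Timp4 (chromosome 6, ENSMUSG00000030317) the log2 fold change was -0.55 ± 0.16 SE, adjusted p = 0.0314, with a 95% interval of -0.89 to -0.21. Its standard error was the second largest of the 10, after that of Timp1, and its coefficient of variation between mice was 20.6% in WT and 30.4% in Vps13c-cKO, against 6.07% and 3.17% for Timp2. The call ended without WT 1, WT 2, WT 4, WT 6, Vps13c-cKO 3 or Vps13c-cKO 6, with log2 fold changes of -0.53, -0.51, -0.52, -0.51, -0.43 and -0.47 and adjusted p of 0.0545, 0.0750, 0.0607, 0.0664, 0.0610 and 0.0686. It also ended without WT 4 and Vps13c-cKO 1 together (-0.55, adjusted p = 0.0691), with the DESeq2 test (adjusted p = 0.113) and with a robust estimate of the spread (adjusted p = 0.172).

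Timp3, whose protein binds to the matrix, did not pass. It was at 140 to 191 CPM in WT (median 169) and at 133 to 190 CPM in Vps13c-cKO (median 179), with a log2 fold change of 0.06 ± 0.08 SE (95% interval -0.09 to 0.22, adjusted p = 0.680). Vps13c-cKO 3 was the lowest of all 12 mice for Timp3 as well as for Timp4. In GENCODE M21, exons of Timp3 share 1733 of their 8144 bases with Syn3, those of Timp4 share 90 of 5894 with Syn2 and those of Loxl3 share 535 of 4603 with Htra2, each on the opposite strand. Whether the counting used strand is not stated in the labels, so reads in these stretches cannot be told apart. Syn3 itself had 5 to 22 counts per library, Syn2 60 to 98 and Htra2 77 to 134, and none of these neighbours was called (log2 fold changes of -0.25 ± 0.27, -0.16 ± 0.14 and -0.13 ± 0.10 SE).

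Timp1, which encodes an inducible secreted inhibitor, was barely detected and was higher in Vps13c-cKO. It had 7 to 22 counts per library in WT and 14 to 30 in Vps13c-cKO. In CPM the WT mice were at 0.446 to 1.59 (median 0.663) and the Vps13c-cKO mice at 1.11 to 2.12 (median 1.41). All 6 Vps13c-cKO mice were above the WT median, but only 2 of them were above the highest WT mouse, WT 4, which is the library that held atrial transcripts. The log2 fold change of Timp1 (chromosome X, ENSMUSG00000001131) was 0.92 ± 0.29 SE, adjusted p = 0.0422, and 1.22 without WT 4 (adjusted p = 0.00681). Timp1 was at 1.29 without WT 4 and Vps13c-cKO 1 (adjusted p = 0.00597). The call ended when any of 9 other libraries was left out: WT 1, 2, 3 or 5, or Vps13c-cKO 2, 3, 4, 5 or 6. It was then 0.79 to 0.96 on the log2 scale and the adjusted p 0.0535 to 0.102. With no filter on low counts, which raises the number of genes tested, the adjusted p was 0.0684.

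Timp4 differed in response from every other TIMP. The log2 difference in response was 1.48 ± 0.38 SE for Timp1 against Timp4 (exact permutation p = 0.00216, the smallest these 12 mice can give; adjusted p = 0.0162 over 15 pairs), and all 6 Vps13c-cKO mice were on one side of all WT mice. It was 0.65 ± 0.18 SE for Timp3 against Timp4 (exact permutation p = 0.00649, adjusted p = 0.0325) and 0.78 ± 0.25 SE for Timp2 against Timp4 (exact permutation p = 0.0130, adjusted p = 0.0487). The difference of Timp2 and Timp4 was called no longer without any of WT 1, 2, 3, 4 or 6 or Vps13c-cKO 3, 4 or 6 (0.62 to 0.82, adjusted p 0.0541 to 0.0909). That of Timp3 and Timp4 was called no longer without WT 2 or WT 3 (0.61 and 0.68, adjusted p 0.0649 and 0.0584). Without both libraries that stood apart, the adjusted p was 0.0397 for Timp1 against Timp4, 0.0714 for Timp3 against Timp4 and 0.0794 for Timp2 against Timp4. Timp1 exceeded Timp2 by 0.70 ± 0.28 SE and Timp3 by 0.83 ± 0.32 SE in response, both short of the threshold (adjusted exact permutation p = 0.0649 and 0.0603). Without WT 4 both passed (0.88 and 1.06, adjusted p = 0.0325 and 0.0108). Without any 1 of the other 11 mice neither passed (adjusted exact permutation p up to 0.123 and 0.116). Without WT 4 and Vps13c-cKO 1 together, Timp1 against Timp3 passed (1.14, adjusted p = 0.0397) and Timp1 against Timp2 did not (0.95, adjusted p = 0.0714). Timp2 and Timp3 differed by 0.13 ± 0.11 SE (exact permutation p = 0.288, adjusted p = 0.332).

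**Figure D2:**
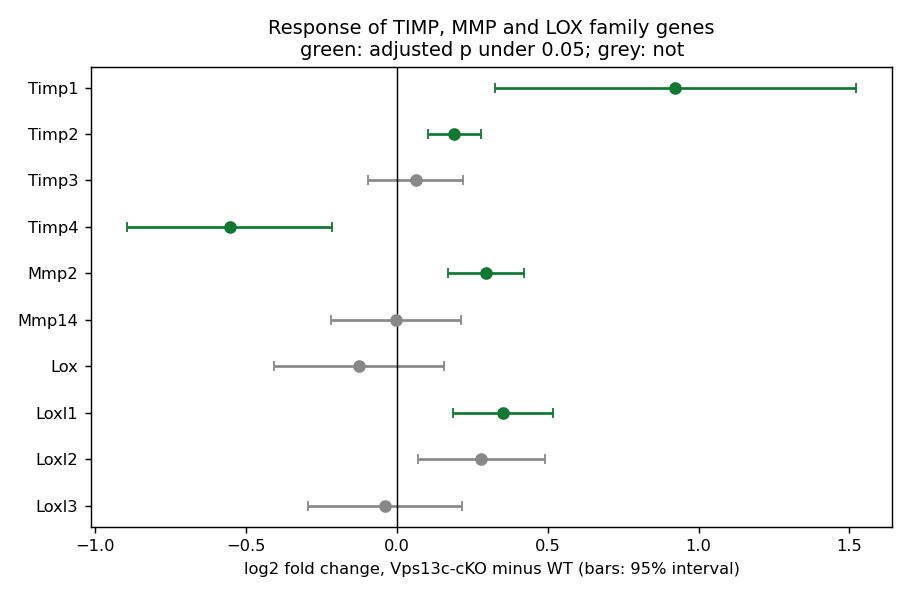
Log2 fold change of each gene in Vps13c-cKO against WT (horizontal axis) with its 95% interval, from 6 mice per group; green points passed an adjusted p of 0.05. Timp4 lies at -0.55 and Timp1 at 0.92 with the widest interval, while Timp2, Mmp2 and Loxl1 lie between 0.19 and 0.35 with narrow ones.

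The TIMPs were also summed in each mouse, and each gene's share of that sum was taken, with no test. Per kilobase of exon, the 4 inhibitors summed to 49.7 to 63.6 CPM per kb in WT (median 59.4) and 51.0 to 63.8 in Vps13c-cKO (median 60.5). Timp4 made up 18.1% to 27.5% of that sum in WT (median 24.7%) and 10.8% to 19.9% in Vps13c-cKO (median 17.4%). Timp2 made up 35.6% to 46.2% in WT (median 40.0%) and 41.2% to 53.0% in Vps13c-cKO (median 44.1%), and Timp1 never exceeded 4.21%. The groups overlapped in each of these shares, and WT 5 was the mouse that brought the Timp4 shares together. If reads in the stretch that Timp3 shares with Syn3 went uncounted, the share of Timp3 is too low and the other shares are too high.

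**Figure D3:**
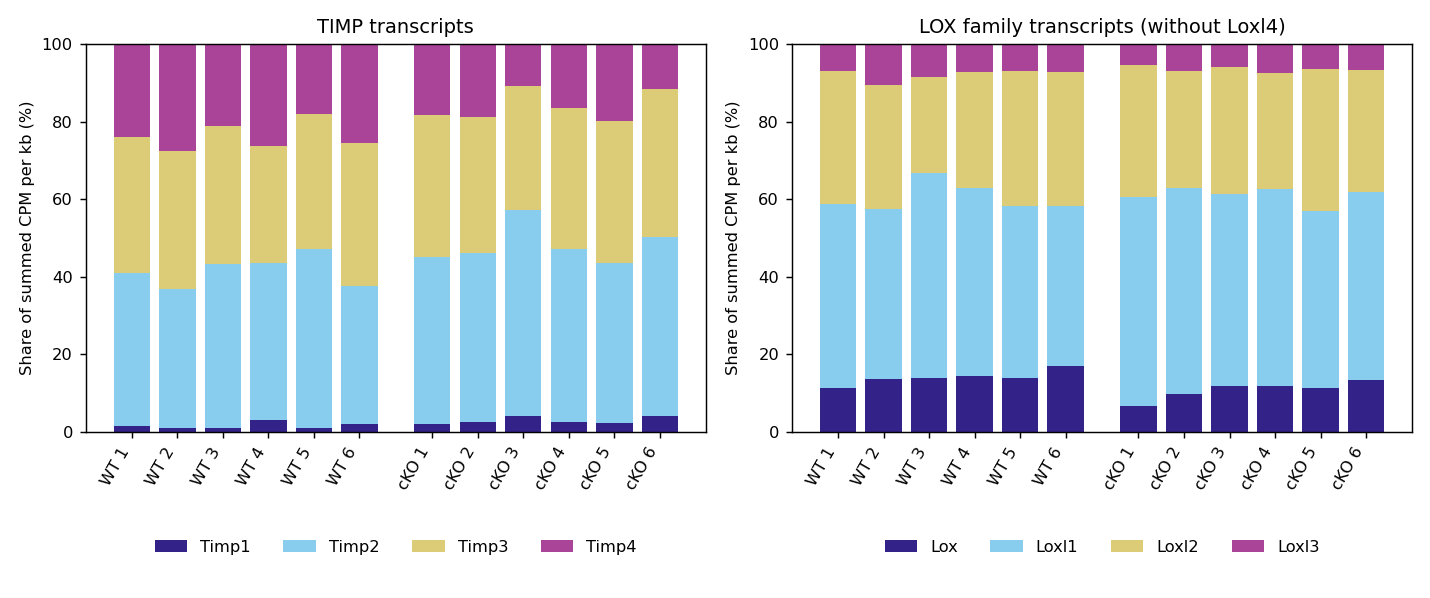
Share of each gene (percent, vertical axis from 0) in the summed CPM per kb of the TIMPs (left) and of Lox, Loxl1, Loxl2 and Loxl3 (right), 1 bar per mouse. The median share of Timp4 is 24.7% in WT and 17.4% in Vps13c-cKO, and the median share of Lox is 13.9% and 11.6%.

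Of the lysyl oxidase genes, Loxl1 alone was called. Loxl1, whose enzyme is known for its part in elastic fibre upkeep, was at 14.7 to 20.5 CPM in WT (median 18.4) and at 19.8 to 24.3 CPM in Vps13c-cKO (median 23.4). All but 1 of the Vps13c-cKO mice, Vps13c-cKO 6, lay above every WT mouse (5 of 6). For Loxl1 (chromosome 9, ENSMUSG00000032334) the log2 fold change was 0.35 ± 0.08 SE, adjusted p = 0.00541. Vps13c lies on the same chromosome, as do other genes named below, among them Pcolce2 (called higher), Mmp13 (called lower) and Adamts7 (not called). Loxl2, which crosslinks collagen IV and has been tied to fibrosis, was at 15.2 to 24.4 CPM in WT (median 21.1) and at 21.05 to 30.9 CPM in Vps13c-cKO (median 23.9). Only 3 Vps13c-cKO mice exceeded the highest WT mouse, and its log2 fold change of 0.28 ± 0.10 SE missed the threshold (95% interval 0.07 to 0.49, adjusted p = 0.0833). Without WT 1 it passed (0.34, edgeR adjusted p = 0.0352), and in the other 11 fits without 1 mouse it did not (adjusted p up to 0.217).

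Lox, the founding member of the family, did not pass. It was at 6.66 to 9.66 CPM in WT (median 7.65) and at 4.29 to 8.49 CPM in Vps13c-cKO (median 8.03), and the lowest value belonged to Vps13c-cKO 1, the library that held liver transcripts. For Lox (chromosome 18, ENSMUSG00000024529) the log2 fold change was -0.12 ± 0.14 SE (95% interval -0.41 to 0.16, adjusted p = 0.642), -0.02 without Vps13c-cKO 1 and 0.02 without Vps13c-cKO 1 and WT 4. Loxl3, with 41 to 73 counts per library, was at 3.76 to 4.91 CPM in WT and 3.26 to 4.96 CPM in Vps13c-cKO, a log2 fold change of -0.04 ± 0.12 SE (95% interval -0.29 to 0.22, adjusted p = 0.897).

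Within the family, Loxl1 rose more than Loxl3 by 0.40 ± 0.13 SE on the log2 scale, with all 6 Vps13c-cKO mice beyond all WT mice (exact permutation p = 0.00216, adjusted p = 0.0162). The response of Lox was 0.51 ± 0.20 SE below that of Loxl1 and 0.44 ± 0.19 SE below that of Loxl2, and both differences missed the threshold (adjusted exact permutation p = 0.0519 and 0.0609). Both passed without WT 1 (-0.58 and -0.52, adjusted p = 0.0433 and 0.0455), and that of Lox and Loxl1 passed without Vps13c-cKO 6 (-0.59, adjusted p = 0.0325). With 1 mouse left out, that of Lox and Loxl1 missed the threshold in 10 of 12 cases and that of Lox and Loxl2 in 11. The adjusted exact permutation p then reached 0.0974 and 0.123. Without WT 4 and Vps13c-cKO 1 the 2 differences were -0.37 and -0.27 (adjusted p = 0.119 and 0.185). Loxl1 and Loxl2 differed by 0.07 ± 0.14 SE (adjusted exact permutation p = 0.628), Loxl2 and Loxl3 by 0.33 ± 0.17 SE (adjusted p = 0.151), and Lox and Loxl3 by -0.11 ± 0.16 SE (adjusted p = 0.538). Timp2 and Mmp14 differed by 0.19 ± 0.11 SE (adjusted p = 0.152). In all, 4 of the 15 pairs compared passed. Per kilobase of exon, the 4 genes summed to 10.2 to 13.1 CPM per kb in WT (median 11.7) and 12.4 to 15.6 in Vps13c-cKO (median 13.9). Lox made up 11.3% to 17.1% of that sum in WT (median 13.9%) and 6.77% to 13.5% in Vps13c-cKO (median 11.6%), and the lowest share was that of Vps13c-cKO 1.

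**Figure D4:**
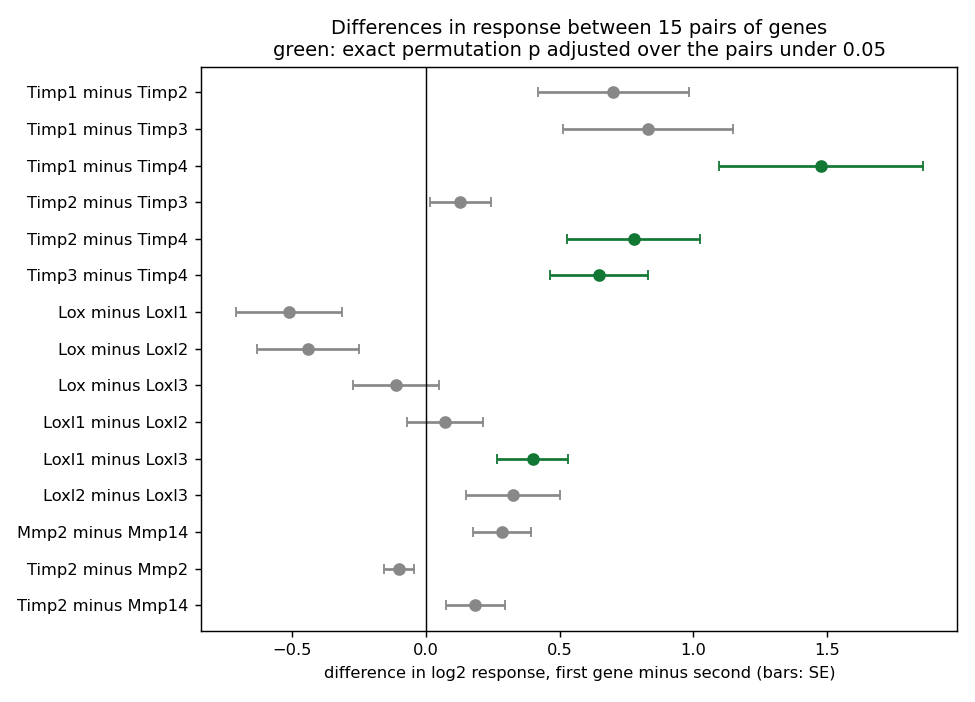
Difference in log2 response between the members of 15 pairs, first gene minus second (horizontal axis), with its SE over 6 mice per group; green pairs passed the exact permutation test after adjustment over the pairs. The 3 pairs with Timp4 and the pair of Loxl1 and Loxl3 are green.

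Levels of the genes were compared per kilobase of exon, with lengths from GENCODE M21. The lengths include the stretches shared with genes on the opposite strand, 1733 of 8144 bases for Timp3 and 535 of 4603 for Loxl3. If reads there went uncounted, the levels of Timp3 and Loxl3 per kilobase are too low. The order of Timp2 and Timp3, and of Timp1 and Loxl3, could then differ from that given here, as could the separation of Timp2 from Timp3. In WT the order was Timp2 (23.4 ± 1.42 CPM per kb; SD, n = 6), Timp3 (20.4 ± 2.39), Timp4 (14.1 ± 2.91), Mmp2 (9.35 ± 0.591), Loxl1 (5.47 ± 0.733), Loxl2 (3.74 ± 0.616), Mmp14 (2.43 ± 0.436), Lox (1.66 ± 0.231), Timp1 (0.935 ± 0.518) and Loxl3 (0.927 ± 0.0866). Neighbours in this order overlapped between mice, except that Timp3 stood clear of Timp4 and Mmp2 stood clear of Loxl1. In Vps13c-cKO Mmp2 (11.5 ± 1.04) came before Timp4 (9.62 ± 2.93) and Timp1 (1.75 ± 0.430) before Lox (1.51 ± 0.348), each pair with overlapping ranges. There Timp2 stood clear of Timp3, Timp3 of Mmp2, Loxl1 of Loxl2 and Loxl2 of Mmp14.

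The genes whose profile over the 12 mice was nearest to that of the leading gene of each role were found by the mean absolute difference of centred log2 CPM. For Timp2 these were Kif5b (0.02), Gab2 (0.04) and Ptpn14 (0.05). For Mmp2 they were Atf5 (0.05), Serpinf1 (0.06) and Etv6 (0.06), of which Serpinf1 encodes a secreted serpin of the matrix and is on the list of inhibitors used below. For Loxl1 they were the matrix protein gene Svep1 (0.07), the growth factor gene Igf1 (0.08) and the actin-bundling gene Lcp1 (0.09). Their log2 fold changes ran from 0.12 ± 0.05 SE for Gab2 to 0.40 ± 0.07 SE for Lcp1. Gab2 and Igf1 did not pass the threshold (edgeR adjusted p = 0.145 and 0.0635). Centring was over all 12 mice, so the difference between the groups is part of this distance. The fold changes of the nearest genes are therefore no separate support.

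Other genes of matrix turnover moved in both directions: of 81 tested on 6 lists, 17 were higher and 6 lower. These are 28.4% called, against 10.7% of all tested genes. The lists were chosen with earlier results of these data known, so their counts are a description. Of 17 further MMP genes, 8 were tested, 0 were higher and 2 lower (median log2 fold change -0.20). Mmp11 fell from 4.98 ± 0.989 to 3.42 ± 0.442 CPM (SD, n = 6 each; log2 fold change -0.54 ± 0.14 SE, adjusted p = 0.0156), and the collagenase gene Mmp13 fell from 1.81 ± 0.540 to 1.01 ± 0.400 CPM (-0.84 ± 0.26 SE, adjusted p = 0.0404). Mmp23 (0.39 ± 0.14 SE, adjusted p = 0.0813) and the membrane-type gene Mmp15 (-0.13 ± 0.05 SE, adjusted p = 0.0906) missed the threshold. The gelatinase gene Mmp9 had 28 counts over the 6 WT libraries and 33 over the 6 Vps13c-cKO libraries and was too low to be tested.

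The ADAM and ADAMTS list holds membrane sheddases and secreted proteoglycan and procollagen proteases. Of its 20 tested genes 2 were higher and 1 lower (median 0.02). That is 15% called, against 10.7% of all tested genes. Adamts5, an aggrecan- and versican-cutting protease, fell from 67.5 ± 6.73 to 56.2 ± 4.77 CPM (adjusted p = 0.00935), while Adamts1 rose from 48.8 ± 5.60 to 58.5 ± 3.81 CPM (adjusted p = 0.00958). Adamts2, which removes the N-terminal propeptide of procollagen, rose by 0.30 ± 0.07 SE on the log2 scale. Adamts7 was at -0.20 ± 0.08 SE and did not pass (adjusted p = 0.102). Of 12 tested serine and cysteine proteases, 2 were higher, Prss23 (0.62 ± 0.12 SE) and the cathepsin gene Ctsb (0.12 ± 0.03 SE), and 1 was lower, Htra1 (-0.20 ± 0.05 SE; list median -0.05). The next by p was Ctsl (0.13 ± 0.05 SE, adjusted p = 0.0725). Plasminogen (Plg) had 83 counts, all in Vps13c-cKO 1, the library that held liver transcripts.

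Of 8 tested inhibitors other than TIMPs, 2 were higher and 0 lower (median 0.19), namely Serpinf1 (0.32 ± 0.08 SE) and Serping1 (0.15 ± 0.04 SE). That is 25% called on a short list, against 10.7% of all tested genes. Serpina3n (0.41 ± 0.18 SE, adjusted p = 0.155) missed the threshold.

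Among genes of procollagen processing and of other crosslinking reactions, 5 of 20 tested genes were higher and 2 lower (median 0.07). That is 35% called, against 10.7% of all tested genes. P4hb, the shared subunit of prolyl 4-hydroxylase and protein disulfide isomerase, rose by 0.38 ± 0.04 SE on the log2 scale, from a mean of 195 CPM in WT to 254 CPM. Both procollagen C-proteinase enhancers rose, Pcolce by 0.33 ± 0.07 SE and Pcolce2 by 0.42 ± 0.07 SE, and so did the C-proteinase gene Bmp1 by 0.18 ± 0.05 SE, whose enzyme also activates the lysyl oxidase precursor. The transglutaminase gene Tgm2, whose enzyme crosslinks matrix proteins by another reaction, rose by 0.29 ± 0.05 SE. The collagen chaperone gene Serpinh1 fell by 0.21 ± 0.06 SE and P3h4, which is needed for lysine hydroxylation of collagen, fell by 0.38 ± 0.10 SE. Loxl4, the remaining lysyl oxidase gene, was at 0.782 ± 0.316 CPM in WT and 1.30 ± 0.466 CPM in Vps13c-cKO (adjusted p = 0.123).

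Of 13 tested substrates and partners of the lysyl oxidases, 6 were higher and 0 lower (median 0.22). That is 46.2% called, against 10.7% of all tested genes. The 6 were the fibrillar collagen genes Col1a1, Col1a2, Col3a1, Col5a1 and Col5a2, at 0.22 to 0.38, and periostin (Postn), a matricellular protein that supports lysyl oxidase activation, at 0.34 ± 0.08 SE. Elastin (Eln), a lysyl oxidase substrate of elastic fibres, was at 0.03 ± 0.13 SE and did not pass (adjusted p = 0.942).

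**Figure D5:**
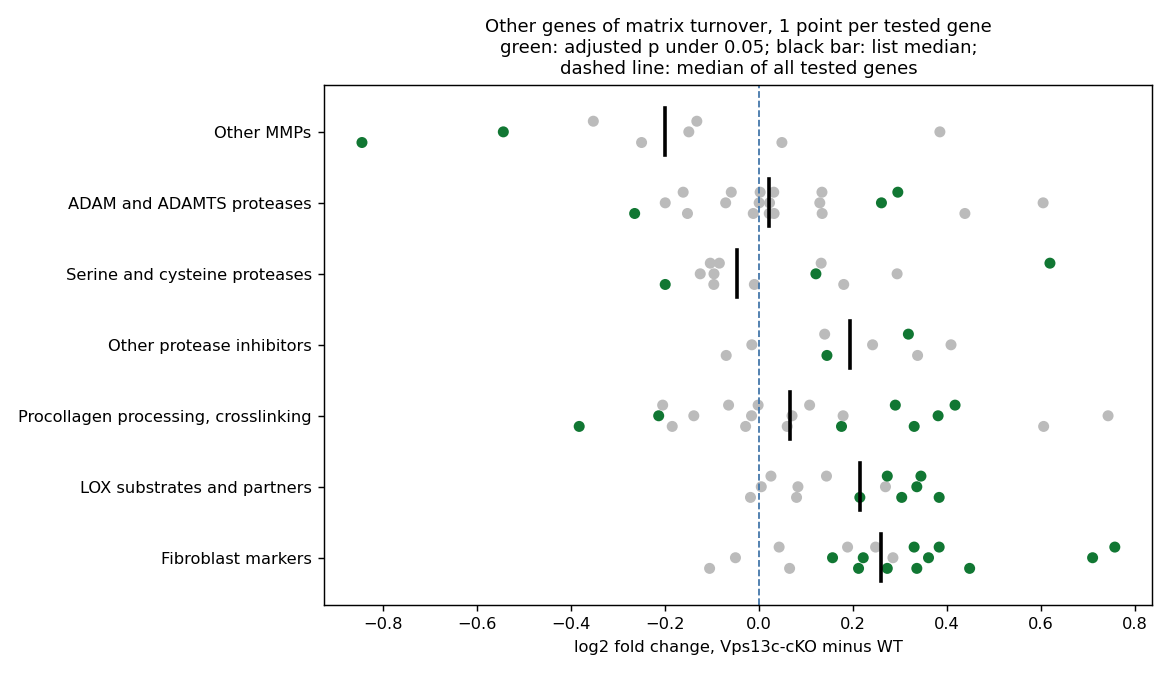
Log2 fold change of every tested gene on 6 lists of matrix turnover and of fibroblast markers (horizontal axis), 1 point per gene; green points passed an adjusted p of 0.05, black bars are list medians and the dashed line is the median of all tested genes. Other MMPs have a median of -0.20, LOX substrates and partners 0.22 and fibroblast markers 0.26.

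Markers of cell types moved in both directions, and 10.7% of all tested genes were called. In bulk tissue, more cells of a type and more RNA per cell cannot be told apart. Of 18 fibroblast markers 11 were higher and 0 lower, with a median log2 fold change of 0.26. Fbln2, Col1a1 and Col1a2 had the smallest p. The 7 that were not called included Pdgfra (0.04 ± 0.05 SE, edgeR adjusted p = 0.664) and Tcf21 (0.25 ± 0.13 SE, adjusted p = 0.253). The summed level of all 18 markers was 2081 to 2327 CPM in WT and 2399 to 2665 CPM in Vps13c-cKO, without overlap. Gsn weighed most in that sum, with a mean of 890 CPM in WT and 1031 CPM in Vps13c-cKO. Of the markers, 0 were at 0. Col1a1, Col1a2 and Col3a1 are also on the list of lysyl oxidase substrates. Macrophage markers were higher for 4 of 12 (Lyz2, C1qb and C1qc among them) and lower for 0, with sums of 312 to 437 CPM in WT and 379 to 455 CPM in Vps13c-cKO. Smooth muscle and pericyte markers had 1 of 9 higher (Myh11) and 3 lower (Smtn and Rgs5 among them). Their sums were 1748 to 2066 CPM in WT and 1683 to 1733 CPM in Vps13c-cKO, again without overlap. Rgs5 weighed most in these sums, with a mean of 905 CPM in WT and 836 CPM in Vps13c-cKO. Endothelial markers had 1 of 11 lower (Cldn5), with sums of 957 to 1124 and 996 to 1015 CPM, and ventricular cardiomyocyte markers had 3 of 8 lower (Tnni3, Myl2 and Tnnt2), with sums of 53849 to 58582 and 51607 to 56122 CPM. Atrial markers, with 4 tested, had 0 calls. Epicardial and lymphocyte markers summed to at most 5.17 and 2.56 CPM in any mouse, with 1 and 0 genes tested. Of the adipocyte markers only Fabp4 was tested, and it was not called. The part of these cell types in the results above was not tested.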

How the data were processed

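The deposited table holds raw read counts per gene for 12 libraries, per the file headers. Per the submitters' processing notes, the tools were HISAT2 2.1.0, HTSeq 0.9.1 and fastp 0.22.0, on the build GRCm39. Neither an annotation release nor a strand setting is stated there. Per the labels' protocols, RNA was captured with poly-T beads and amplified by PCR, with no molecular identifiers mentioned.

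Counts were fitted with edgeR 4.0.16 in R 4.3.3 (TMM factors, filterByExpr, quasi-likelihood F test, two-sided) on all 12384 genes that passed the filter. P-values were adjusted by Benjamini-Hochberg over all of them, with calls made below 0.05. Differences in response between 15 pairs of genes were tested by a two-sided exact permutation test over all 924 splits of the mice, on log2 CPM with a prior count of 2, adjusted over the 15. Levels were divided by exon lengths of GENCODE M21 (GRCm38), which is another build than that of the counts, so only its lengths, names and overlaps were used. The fit was also run on simulated counts. Their spread was taken from this same fit, so that run gives no support for the calls above.

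Named were the 10 genes and Vps13c; of each pathway list, up to 4 tested genes with the smallest p and any further called gene; of each marker list with calls, up to 3 genes; and the 3 genes nearest in profile to the gene with the smallest p in each role. Mmp9, Loxl4, Eln, Plg, Pdgfra, Tcf21, Gsn, the overlapping neighbours and the atrial and liver genes were named after their values were seen. One gene that the rule names is not reported here. The genes and lists were chosen with earlier results of these data known, so lists carry no test. Alternatives were DESeq2 1.42.0 (size factors and test), limma 3.58.1 (voom), upper-quartile factors, other filters, a robust spread, a replicate block, another prior count and leaving out each mouse. One alternative, without WT 4 and Vps13c-cKO 1, was added after the data were seen.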

Additional observations from a re-analysis of the deposited data

Results flagged for a closer look

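In 40 groups of 6 mice examined (each gene or marker sum in each genotype), 3 held a mouse set far apart from the other 5, and chance gives about 1 such group in 20. Timp3 was at 133 CPM in Vps13c-cKO 3, while the other 5 Vps13c-cKO mice lay between 177 and 190 CPM. Loxl1 was at 19.8 CPM in Vps13c-cKO 6, while the other 5 lay between 23.3 and 24.3 CPM. The summed atrial markers were at 107 CPM in WT 4, against 28.8 to 34.4 CPM in the other 5 WT mice.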

How the results depend on the processing

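Timp2, Mmp2 and Loxl1 stayed called under all 10 other settings and all 12 fits without 1 mouse, with log2 fold changes of 0.16 to 0.21, 0.26 to 0.33 and 0.30 to 0.39 over the latter. The number of the 10 genes called lower was 1, and it was 0 with a robust spread, with the DESeq2 test and without WT 4 and Vps13c-cKO 1 together; without 1 mouse at a time it was 0 to 1, and the number called higher was 3 to 4. Over all genes, 561 to 725 were higher and 504 to 672 lower without 1 mouse. Values near 0 changed sign: Mmp14 was at 0.0021 with a minimum mean of 5 CPM, 0.0032 with the replicate block, 0.0096 with limma-voom and -0.065 to 0.078 without 1 mouse, Loxl3 at 0.0197 without WT 4 and Vps13c-cKO 1 and -0.095 to 0.0197 without 1 mouse, and Lox at 0.015 without WT 4 and Vps13c-cKO 1. The cause of these changes was not tested. Timp1 and Loxl3 were not tested with a minimum mean of 5 CPM.

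Same-numbered mice did not deviate together in expression (correlations of -0.0396 to 0.0618; 1 of 6 correlated best with its own number). The data thus showed no pairing by number. Whether same-numbered mice shared a litter or were handled together is not stated in the labels and cannot be told from these correlations. With the replicate number as a block, 4 of the genes were higher and 1 lower, and 687 of all genes were higher and 625 lower. A sign-flip permutation over same-numbered mice called none of the 15 pairs of genes: the adjusted p was 0.0938 for Timp1 against Timp4 (1.48) and for Loxl1 against Loxl3 (0.40), and 0.134 for Timp2 against Timp4 (0.78) and Timp3 against Timp4 (0.65). The smallest unadjusted p that 6 pairs of mice allow is 0.03125. After adjustment over the 15 pairs of genes, a call was possible only if most of them had that p. The absence of calls is therefore not read as a result. Depth limits Timp1 most, with 7 to 30 counts per library.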

Other observations

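The tested genes nearest to Timp4 in profile over the 12 mice, looked up after its values were seen, were Adh1, Il34 and Rasgrp2, with mean absolute differences of 0.18, 0.21 and 0.22 on the log2 scale. This distance grows with a gene's own spread between mice, so it is not compared with that of the other genes. It also takes in the difference between the groups, so the fold changes of the nearest genes are no separate support. Of these, Rasgrp2 was called lower in Vps13c-cKO (-0.41 ± 0.09 SE, edgeR adjusted p = 0.00450), while Adh1 (-0.28 ± 0.22 SE, adjusted p = 0.492) and Il34 (-0.23 ± 0.21 SE, adjusted p = 0.568) were not.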
